A study of Mus musculus with 12 samples.

Results

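Collagens, laminins and the other structural genes of the basement membrane were examined in mouse retina, with and without oxygen-induced retinopathy (OIR). The genes were taken by symbol: every collagen alpha chain, every laminin chain, and Nid1, Nid2, Hspg2, Agrn, Sparc, Fn1, Tnc, Postn, Serpinh1 and Lox. Of 65 matching symbols, 64 held at least 10 reads over the 12 libraries and were kept, among 19825 genes that passed the same minimum and 35976 symbols in all. The gene left out, Col6a5, had 7 reads. Messenger RNA was sequenced from the 3′ end of transcripts in 12 retinal libraries, 3 in each of 4 groups. The WT normoxia group held C57BL/6 pups kept in room air (21% oxygen) and taken at postnatal day 15, and WT OIR held C57BL/6 pups exposed to 75% oxygen from postnatal day 7 to 12, then returned to room air for 3 days and taken at postnatal day 15. The same pair of conditions, again 3 days after the return to room air, was labelled Casp1 KO in caspase-1 knockout mice. The age and the oxygen level of the knockout pups, and the number of animals behind a library, are not given in the sources used here, so that p-values measure the spread between these libraries only.

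A basement membrane is the thin sheet of matrix on which endothelial cells and epithelia sit. Laminin heterotrimers assemble next to the cell, type IV collagen forms a second, crosslinked network, and nidogen, perlecan (Hspg2) and agrin bind the networks together. In the retina such sheets lie around the vessels, at the vitreal surface (the inner limiting membrane) and under the pigment epithelium. In OIR, high oxygen stops and prunes the growing vessels, and the tissue becomes relatively hypoxic on return to room air, after which new vessels sprout and lay down new basement membrane.

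Total reads per library ran from 3391203 to 5657873 in 11 libraries and reached 22815830 in WT normoxia replicate 2, so that 3 reads, the limit that a count of 0 allows, stood for 0.131 to 0.885 CPM (reads scaled to a common library total). The rod marker list summed to 46900 to 57600 CPM over the libraries, so the retina label held. Reads of Casp1 went against the genotype labels: the 6 libraries labelled WT held 7 reads in all (0 to 3 each) and the 6 labelled Casp1 KO held 126 (10 to 45 each). Which part of the gene the knockout lacks is not given in the sources used here, and reads from the 3′ end need not test it. The genotypes are therefore given as labelled, and every direction between genotypes below rests on those labels. WT OIR replicate 3 stood apart for these genes: it was the lowest of its group for 38 of the 64 (59.4%), against 36.5% of all genes. Levels below are CPM scaled by the trimmed mean of M-values (TMM), and log2 fold changes, standard errors (SE) and adjusted p-values come from edgeR's quasi-likelihood test with Benjamini-Hochberg adjustment over all genes and a threshold of 0.05.

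In libraries labelled WT, 13 of the 64 matrix genes were called higher in OIR and none lower. Over all 19737 genes tested, 1.99% were higher and 2.92% lower. At an unadjusted p under 0.05, without regard to direction, there were 19 of the 64, against 15% of all genes. The 13 were the type IV collagens Col4a1, Col4a2 and Col4a4, the linkers Nid1 and Hspg2, the laminin chain Lama4, Col18a1, the fibrillar collagens Col2a1, Col5a1 and Col5a3, Col8a1, fibronectin (Fn1) and Sparc. With or without a call, 49 of the 64 were fitted higher and 15 lower (51.4% of all genes were fitted higher), and the median log2 fold change was 0.446 (0.016 over all genes). In 19 of the 64 all 3 OIR libraries lay above all 3 normoxia libraries, against 9.4% of all genes, and in 0 of the 64 did they lie below, against 9.78%. Over single genes an exact permutation test of 3 libraries against 3 cannot go below p = 0.1, which these 19 genes reached.

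Summed over the 64 genes without Sparc, whose reads outnumber those of the others together, the level was 793, 745 and 759 CPM in WT normoxia and 1220, 1240 and 925 CPM in WT OIR. The groups did not overlap, and WT OIR replicate 3 was the lowest of its group. The same sum was 828, 892 and 816 CPM in Casp1 KO normoxia and 1040, 1020 and 1040 CPM in Casp1 KO OIR, again without overlap. In bulk tissue, fewer cells of a type and less RNA per cell cannot be told apart.

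**Figure D1:**
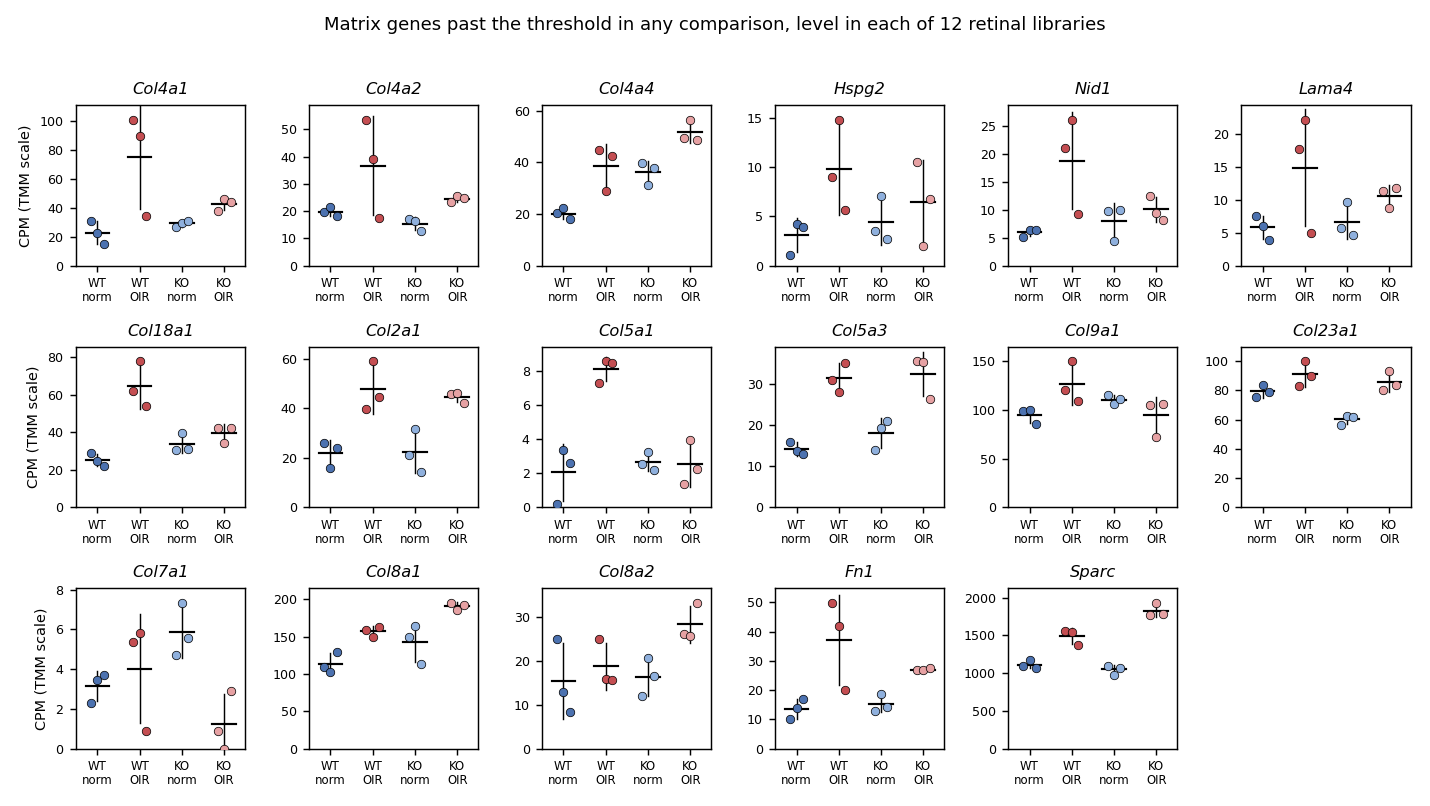
Level of the 17 matrix genes past the threshold in at least 1 of the 5 fits, in CPM on the TMM scale (vertical axes from 0), in normoxia (norm) and OIR for each genotype label. Each point is a library, in the order of replicates 1 to 3, the horizontal line the mean and the vertical line ± 1 SD (n = 3); Col4a1 stood at 101 and 89.5 CPM in WT OIR replicates 1 and 2 and at 34.4 CPM in replicate 3.

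The type IV collagens carry the network of the sheet itself. Col4a1 and Col4a2 encode the chains of its most widespread trimer, and they lie head to head on chromosome 8 (mm10, GENCODE): Col4a1 at chr8:11198423-11312826 on the minus strand and Col4a2 at chr8:11312805-11449287 on the plus strand, so that their annotated 5′ ends overlap. The RefSeq promoter windows of the pair (GRCm38.p6, 250 bases before to 50 after the start) are shown because both genes start from the same stretch and their read ratio is followed below. The windows chr8:11312777-11313076 (minus strand, Col4a1) and chr8:11312555-11312854 (plus strand, Col4a2) are given 5′ to 3′, and capitals mark the 78 bases that lie in both, read on opposite strands.
Col4a1: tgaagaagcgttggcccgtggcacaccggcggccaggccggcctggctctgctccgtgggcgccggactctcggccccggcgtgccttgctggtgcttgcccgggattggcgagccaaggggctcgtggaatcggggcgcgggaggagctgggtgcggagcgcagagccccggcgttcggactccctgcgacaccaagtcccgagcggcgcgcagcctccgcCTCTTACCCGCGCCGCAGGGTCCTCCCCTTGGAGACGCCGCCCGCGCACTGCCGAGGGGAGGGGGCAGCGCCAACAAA
Col4a2: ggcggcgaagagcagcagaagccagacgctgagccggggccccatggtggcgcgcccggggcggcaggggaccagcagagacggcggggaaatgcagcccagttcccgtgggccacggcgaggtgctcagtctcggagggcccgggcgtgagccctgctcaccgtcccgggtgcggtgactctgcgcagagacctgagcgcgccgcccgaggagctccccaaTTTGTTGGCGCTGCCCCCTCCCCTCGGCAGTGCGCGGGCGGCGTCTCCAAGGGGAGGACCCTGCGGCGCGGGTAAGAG

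Col4a1 had the largest fitted change of the 6 type IV chains in WT. Its level was 30.7, 22.5 and 15 CPM in WT normoxia and 101, 89.5 and 34.4 CPM in WT OIR. All OIR libraries lay above all normoxia libraries, with replicate 3 of WT OIR just above the highest of them. The log2 fold change was 1.71 (SE 0.314, adjusted p = 0.002297), a 3.27-fold difference. Without WT normoxia replicate 2 or 3 the call was lost (adjusted p = 0.305 and 0.457), while without WT OIR replicate 3 the log2 fold change was 2.06 (adjusted p = 2.52e-28). It was lost too when weakly counted genes were removed with filterByExpr (adjusted p = 0.122).

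Col4a2 stood at 19.7, 21.5 and 18.3 CPM in WT normoxia and at 53.5, 39 and 17.4 CPM in WT OIR. Here the groups overlapped, because WT OIR replicate 3 lay below every normoxia library. The log2 fold change was 0.87 (SE 0.226, adjusted p = 0.005341) over all 6 libraries and 1.2 without WT OIR replicate 3 (adjusted p = 4.5e-06). The call was lost without WT normoxia replicate 3, WT OIR replicate 1 or WT OIR replicate 2 (adjusted p = 0.275, 0.385 and 0.0513), and the log2 fold change fell to 0.498 without replicate 1. Per read of Col4a2 there were 0.821 to 1.56 reads of Col4a1 in WT normoxia and 1.89 to 2.29 in WT OIR, with no overlap, against 1.59 to 2.48 in Casp1 KO normoxia and 1.62 to 1.79 in Casp1 KO OIR, which overlapped. Since the pair overlap at their 5′ ends and the strand setting of the counting is not given in the sources used here, some reads could fall on either gene, although reads from the 3′ end lie far from that stretch.

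Col4a3 and Col4a4 form, with Col4a5, the trimer of mature glomerular and some ocular basement membranes. They too are neighbours, on chromosome 1, with 71 bases between the annotated starts of Col4a4 (chr1:82448423-82586849, minus strand) and Col4a3 (chr1:82586921-82722059, plus strand). The Col4a4 window (chr1:82586800-82587099, minus strand) is shown with those 71 bases in capitals, because 1 gene of this pair was called in WT OIR and the other was not.
Col4a4: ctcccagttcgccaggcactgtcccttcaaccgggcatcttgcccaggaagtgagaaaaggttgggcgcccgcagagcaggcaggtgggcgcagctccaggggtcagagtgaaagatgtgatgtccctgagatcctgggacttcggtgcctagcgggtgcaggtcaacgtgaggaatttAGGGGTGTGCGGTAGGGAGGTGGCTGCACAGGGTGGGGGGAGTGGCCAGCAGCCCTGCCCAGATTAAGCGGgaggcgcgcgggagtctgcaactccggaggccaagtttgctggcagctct

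Col4a4 was at 20.3, 22.3 and 17.9 CPM in WT normoxia and at 44.9, 29 and 42.3 CPM in WT OIR. The groups did not overlap, and the log2 fold change of 0.93 (SE 0.221, adjusted p = 0.001511) kept its call under all 13 alternative settings. Col4a3 had 15.8, 20.7 and 17.7 CPM in WT normoxia and 17.1, 17.5 and 20.1 CPM in WT OIR, a log2 fold change of 0.01 (SE 0.272, 95% interval -0.53 to 0.54, adjusted p = 0.9948). There were 1.01 to 1.28 reads of Col4a4 per read of Col4a3 in WT normoxia and 1.66 to 2.63 in WT OIR, without overlap. In Casp1 KO the ratio ran from 1.47 to 2.84 in normoxia and from 2.28 to 2.66 in OIR. Col4a5 and Col4a6, the X-linked pair, had fewer reads, and neither was called (log2 fold changes 0.14 and 0.65 in WT, adjusted p = 0.9428 and 0.7899).

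**Figure D2:**
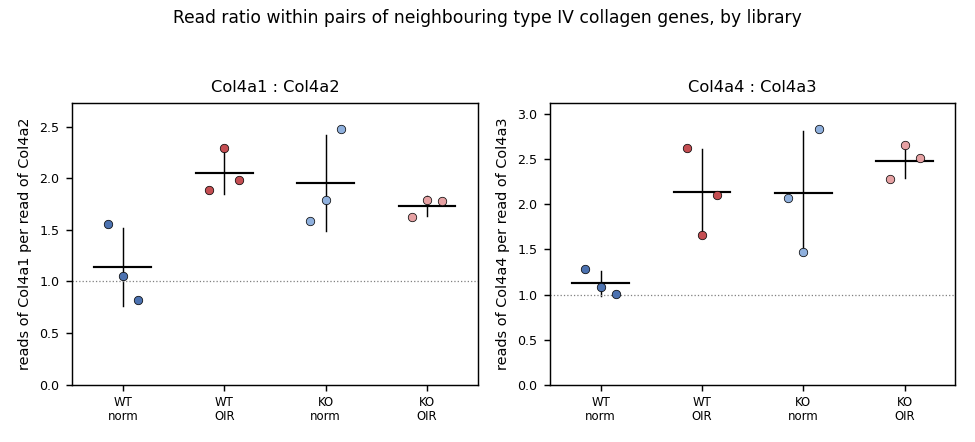
Reads of Col4a1 per read of Col4a2 (left) and of Col4a4 per read of Col4a3 (right) in each library, with the mean and ± 1 SD of 3 libraries per group (axes from 0, dotted line at 1). In WT the OIR libraries lie above the normoxia libraries in both panels (1.89 to 2.29 against 0.821 to 1.56, and 1.66 to 2.63 against 1.01 to 1.28).

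The linkers were next. Nid1 encodes nidogen-1, which joins the laminin and collagen networks, and stood at 5.15, 6.41 and 6.32 CPM in WT normoxia and 21, 26.1 and 9.23 CPM in WT OIR. Every OIR library was above every normoxia library, again with replicate 3 the lowest of its group. Its log2 fold change of 1.64 (SE 0.337, adjusted p = 0.0001024) kept its call under all 13 alternatives. Hspg2, which encodes perlecan, a heparan sulfate proteoglycan, had 1.07, 4.27 and 3.92 CPM in WT normoxia and 9.03, 14.8 and 5.61 CPM in WT OIR. The groups did not overlap, but levels were low, and the call (log2 fold change 1.62, SE 0.465, adjusted p = 0.01517) was lost without WT normoxia replicate 1 (adjusted p = 0.187) or WT OIR replicate 2 (adjusted p = 0.364). Agrn, the linker with most reads, gave a log2 fold change of 0.39 (SE 0.222, adjusted p = 0.4155), and Nid2 had at most 1.53 CPM in either WT group.

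Of the 11 laminin chains kept, 1 was called. Lama4, the alpha-4 chain of vessel laminin, was at 7.46, 6.01 and 3.92 CPM in WT normoxia and 17.6, 22.1 and 4.88 CPM in WT OIR. WT OIR replicate 3 fell within the normoxia range and the other OIR libraries lay well above it. The log2 fold change was 1.34 (SE 0.364, adjusted p = 0.008681). It was no longer called without WT normoxia replicate 3 (adjusted p = 0.179), WT OIR replicate 1 (0.0821) or WT OIR replicate 2 (0.371), and rose to 1.76 (adjusted p = 5.63e-05) without WT OIR replicate 3. Lamb1, the laminin with most reads, was at 29.7, 29 and 30.3 CPM in WT normoxia and 50.5, 41 and 31.7 CPM in WT OIR, with no overlap but no call (log2 fold change 0.47, SE 0.204, adjusted p = 0.2171). It was called without WT OIR replicate 3 (0.62, adjusted p = 0.0383). Lamc1 and Lamb2, the gamma-1 and beta-2 chains, had log2 fold changes of 0.36 (SE 0.265, adjusted p = 0.566) and 0.53 (SE 0.314, adjusted p = 0.4375), with overlapping groups.

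Col18a1 had the smallest adjusted p of the 64 in WT. It encodes the multiplexin collagen of basement membranes whose C-terminal fragment is endostatin, an inhibitor of vessel growth. Its level was 28.8, 24.4 and 22.2 CPM in WT normoxia and 62, 77.8 and 53.7 CPM in WT OIR. All 3 OIR libraries, replicate 3 included, were far above normoxia, and the log2 fold change was 1.36 (SE 0.19, adjusted p = 3.431e-10), a 2.57-fold difference called under all 13 alternatives. The gene (chr10:77052178-77166548, minus strand) is overlapped on the other strand by Slc19a1 and Gm7775, so its count is uncertain if strand was not used. The called genes Nid1, Fn1, Col5a1 and Col5a3, like Col4a1 and Col4a2, also have annotated genes on the other strand, and the same limit holds for them. Col15a1, the other multiplexin, had at most 2.49 CPM and was not called.

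Among the 11 fibrillar collagens kept, 3 were higher in WT OIR. Col2a1, the collagen of cartilage and vitreous, was at 25.9, 16 and 23.8 CPM in WT normoxia and 39.6, 58.9 and 44.3 CPM in WT OIR, and Col5a3, a regulatory chain of type V fibrils, was at 16, 13.7 and 12.9 against 31, 28.1 and 35.3 CPM. Neither overlapped between the groups. Their log2 fold changes were 1.15 (SE 0.209, adjusted p = 5.176e-06) and 1.15 (SE 0.25, adjusted p = 0.0003019), called under all 13 alternatives. Col5a1, the main alpha chain of type V collagen, had 0.178, 3.38 and 2.62 CPM in WT normoxia and 7.32, 8.57 and 8.50 CPM in WT OIR, without overlap (log2 fold change 1.89, SE 0.528, adjusted p = 0.01164). That call was lost without WT normoxia replicate 1 (adjusted p = 0.184) or WT OIR replicate 2 (0.0644). Col1a2, the fibrillar collagen with most reads, had 39.6, 31.2 and 28.8 CPM in WT normoxia and 37.1, 30.3 and 19 CPM in WT OIR (log2 fold change -0.21, adjusted p = 0.7195). Col1a1 had a log2 fold change of -0.67 (adjusted p = 0.215) and Col3a1 one of 0.47 (95% interval -0.58 to 1.51, adjusted p = 0.7642). Without WT OIR replicate 3 the 3 values were 0.02, -0.28 and 0.94 (adjusted p = 0.984, 0.717 and 0.368), and Col11a1 was called, moving from 0.82 (adjusted p = 0.1115) to 1.19 (adjusted p = 0.00352). Without WT OIR replicate 1, Col1a1 was called lower, which it was not over all 6 libraries.

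None of the 9 fibril-associated, 5 beaded-filament and 4 transmembrane collagens kept was called in WT. Col9a1, a cartilage and vitreous collagen and the fibril-associated gene with most reads, had 99, 99.9 and 85.2 CPM in WT normoxia and 120, 150 and 109 CPM in WT OIR, without overlap (log2 fold change 0.41, SE 0.141, adjusted p = 0.06178). It was called without WT OIR replicate 3 (0.51, adjusted p = 0.00313). Col6a1 and Col23a1, the members with most reads of the beaded-filament and transmembrane groups, had log2 fold changes of 0.25 (adjusted p = 0.8271) and 0.19 (adjusted p = 0.5797). Of the 6 remaining collagens, Col8a1, a short-chain collagen of Descemet's membrane and vessel walls, was at 109, 102 and 129 CPM in WT normoxia and 159, 149 and 163 CPM in WT OIR. The groups did not overlap and the rise was small, with a log2 fold change of 0.47 (SE 0.134, adjusted p = 0.01345) whose call was lost without WT normoxia replicate 1 or 2 (adjusted p = 0.114 and 0.176).

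Matricellular genes and provisional matrix make up the remaining calls. Fibronectin (Fn1), the glycoprotein of early, provisional matrix, was at 10.1, 13.8 and 17 CPM in WT normoxia and 49.8, 41.9 and 20.1 CPM in WT OIR. The groups were apart, replicate 3 of OIR lying nearest to normoxia, and the log2 fold change of 1.45 (SE 0.241, adjusted p = 3.64e-07) was called under all 13 alternatives. Sparc, a collagen-binding protein that modulates cell contact with matrix, was at 1100, 1170 and 1070 CPM in WT normoxia and 1560, 1540 and 1370 CPM in WT OIR. The groups did not overlap, and it rose by 0.42 on the log2 scale (SE 0.104, adjusted p = 0.002647), but its call was lost without WT normoxia replicate 1 or 3 (adjusted p = 0.0533 and 0.107). Tnc and Postn, the other matricellular members, had log2 fold changes of -0.08 (adjusted p = 0.9571) and 0.30 (adjusted p = 0.9134). Serpinh1 (Hsp47, the collagen chaperone) and Lox (a crosslinking oxidase) were not called either, at 0.57 (adjusted p = 0.4347) and 1.38 (adjusted p = 0.5755). Beside Col4a1, filterByExpr ended the calls of Col4a2, Lama4, Col5a1 and Hspg2 in WT (adjusted p from 0.0744 to 0.137), and the DESeq2 Wald test ended those of the same 4 genes (0.0617 to 0.105).

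In libraries labelled Casp1 KO, 7 of the 64 were higher and 1 lower in OIR, where 2.99% and 2.63% of the 19463 genes tested were. Fitted higher were 41 of the 64 (49.2% of all genes were), and the median log2 fold change was 0.305 (-0.009 over all genes). At an unadjusted p under 0.05, without regard to direction, there were 15 of the 64, against 15.9% of all genes. In 14 of the 64 all OIR libraries lay above all normoxia libraries and in 3 below, against 9.67% and 10.1% of all genes. The 7 were Sparc, Col2a1, Col5a3, Col8a1, Fn1, Col8a2 and Col23a1, and the gene that fell was Col7a1. No type IV collagen, laminin, nidogen or perlecan gene was among them. The WT and the Casp1 KO comparison share no library. In both, 5 genes were called higher, and 16 were called in either direction in at least 1, the lower Col7a1 among them. The fitted direction was the same for 42 of the 64. The matching counts over all genes were not taken, so these counts do not set the matrix genes apart. Of the 13 genes called in WT, 12 were fitted higher in Casp1 KO and 12 had a smaller change there; they were chosen by their change in WT, and the tests of the difference itself follow further on.

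Sparc gave the smallest adjusted p in Casp1 KO. It was at 1100, 976 and 1070 CPM in Casp1 KO normoxia and 1770, 1930 and 1780 CPM in Casp1 KO OIR. Groups and replicates were tight and far apart (log2 fold change 0.81, SE 0.0633, adjusted p = 6.456e-34). Col2a1 rose from 21.2, 31.4 and 14.3 CPM to 45.8, 46 and 42.2 CPM, a log2 fold change of 1.03 (SE 0.2, adjusted p = 2.528e-05). Both were called under all 13 alternatives, and for neither did the groups overlap.

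Another 3 of the genes called in WT were called here as well. Col5a3 was at 14, 19.4 and 21 CPM in Casp1 KO normoxia and 35.6, 35.5 and 26.3 CPM in Casp1 KO OIR (log2 fold change 0.86, SE 0.227, adjusted p = 0.00547). Fn1 was at 13, 18.5 and 14.3 CPM and then 26.7, 27 and 27.4 CPM (0.85, SE 0.247, adjusted p = 0.01644), and Col8a1 at 150, 164 and 113 CPM and then 195, 185 and 192 CPM (0.43, SE 0.0992, adjusted p = 0.0006836). In each of these the groups stayed apart. The Fn1 call was lost without normoxia replicates 1 or 3 (adjusted p = 0.125 and 0.0689) and without OIR replicates 2 or 3 (0.0508 and 0.0504), the Col5a3 call without normoxia replicate 1 or OIR replicate 2 (0.109 and 0.05), and the Col8a1 call without normoxia replicate 3 (0.114).

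Col8a2, the partner chain of Col8a1, and Col23a1, a transmembrane collagen, were called higher in Casp1 KO and not in WT, but for neither did the interaction below pass the threshold (adjusted p = 0.6218 and 0.5613). Col8a2 went from 12, 20.5 and 16.4 CPM to 26, 25.6 and 33.1 CPM (log2 fold change 0.82, SE 0.241, adjusted p = 0.01759), and Col23a1 from 56.4, 62.2 and 61.9 CPM to 80.3, 93.4 and 83.5 CPM (0.52, SE 0.138, adjusted p = 0.00547). For both, every OIR library lay above every normoxia library. Col8a2 lost its call without normoxia replicate 1 or OIR replicate 3 (adjusted p = 0.213 and 0.155), and Col23a1 without normoxia replicate 1 or OIR replicate 2 (0.0569 and 0.0592). Col7a1, the collagen of anchoring fibrils, fell from 4.74, 7.34 and 5.56 CPM to 0.890, 0 and 2.88 CPM (-2.17, SE 0.673, adjusted p = 0.02743). That call rests on few reads and was lost without any 1 of the 3 normoxia libraries or without OIR replicate 1 or 2 (adjusted p from 0.0573 to 0.218). Without OIR replicate 3, the highest of its group, the log2 fold change was -3.64 (adjusted p = 0.00247). The DESeq2 Wald test called neither Col7a1 nor Col8a2 (adjusted p = 0.0795 and 0.0569).

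None of the 6 type IV collagens passed the threshold in Casp1 KO, with fitted log2 fold changes from 0.16 to 0.69. Col4a1 was at 27, 29.3 and 31.2 CPM in Casp1 KO normoxia and 37.8, 46 and 44 CPM in Casp1 KO OIR, and Col4a2 at 17, 16.4 and 12.6 and then 23.4, 25.6 and 24.7 CPM. In both, as in Col4a4, the OIR libraries lay above the normoxia libraries. Their log2 fold changes were 0.56 (SE 0.191, adjusted p = 0.05825), 0.69 (SE 0.252, adjusted p = 0.09306) and, for Col4a4, 0.51 (SE 0.173, adjusted p = 0.05352). With filterByExpr, Col4a1 was called (adjusted p = 0.0476), and so was Col4a4. Nid1, at 9.85, 4.40 and 9.92 CPM and then 12.5, 9.42 and 8.23 CPM, overlapped between the groups (0.30, SE 0.368, adjusted p = 0.7569), as did Col18a1 at 30.5, 39.3 and 31.2 CPM and then 42.1, 34 and 42.2 CPM (0.24, SE 0.189, adjusted p = 0.568).

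**Figure D3:**
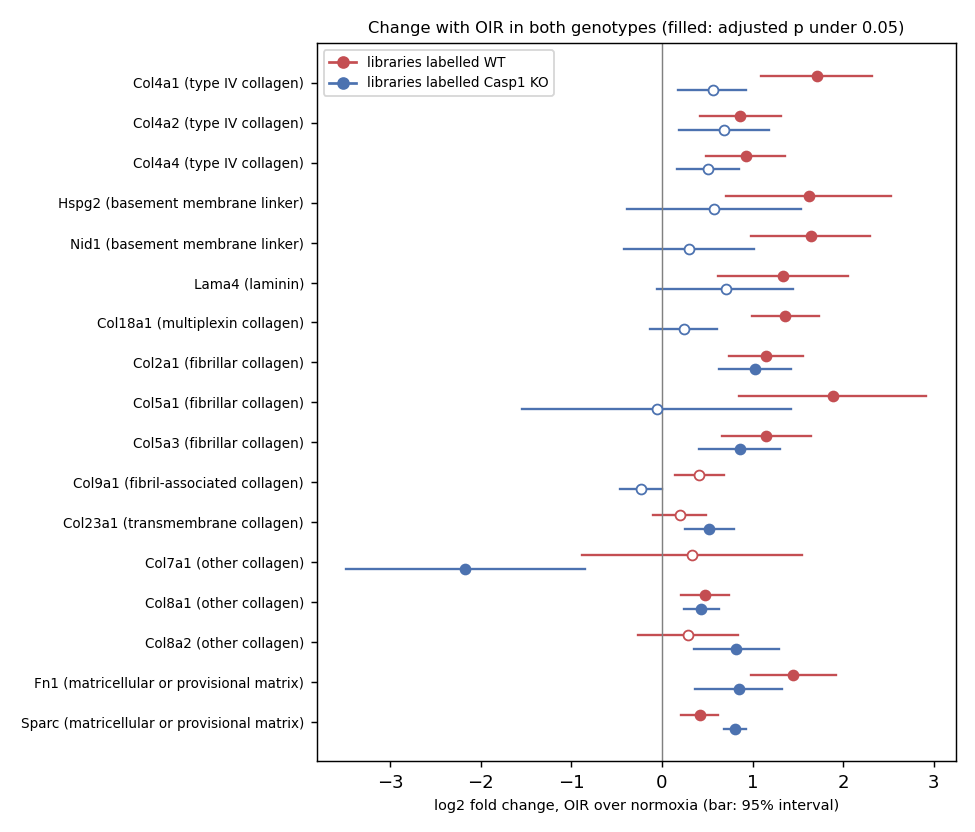
Log2 fold change of OIR over normoxia with its 95% interval for the 17 genes past the threshold in at least 1 fit, ordered by role, in libraries labelled WT (red) and Casp1 KO (blue). Filled points have an adjusted p under 0.05; Col18a1 is at 1.36 in WT and 0.24 in Casp1 KO, and Sparc at 0.42 and 0.81.

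Whether the genotypes differed was tested directly. In normoxia 1 of the 64 was higher in Casp1 KO and 0 were lower, where 0.594% and 0.68% of all genes were, and 6 of the 64 had an unadjusted p under 0.05, against 10% of all genes. All Casp1 KO libraries lay above all WT libraries in 8 of the 64 and below in 6, against 6.91% and 7.27% of all genes. The gene called was Col4a4, at 39.6, 31.4 and 37.7 CPM in Casp1 KO normoxia against 20.3, 22.3 and 17.9 CPM in WT normoxia. The groups were apart, with a log2 difference of 0.84 (SE 0.208, adjusted p = 0.008091). The call was lost without WT normoxia replicate 3 or Casp1 KO normoxia replicate 1 or 3 (adjusted p = 0.0585, 0.0961 and 0.0802). DESeq2 also called Col23a1, lower in Casp1 KO.

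In OIR, 2 of the 64 were lower in Casp1 KO and 0 higher, where 0.338% and 0.389% of all genes were, and the median log2 difference was -0.328 (-0.018 over all genes). The groups did not overlap in 7 genes higher and 9 lower in Casp1 KO, against 6.6% and 7.24% of all genes. Col18a1 was at 62, 77.8 and 53.7 CPM in WT OIR and 42.1, 34 and 42.2 CPM in Casp1 KO OIR, without overlap (log2 difference -0.71, SE 0.181, adjusted p = 0.02534). Col4a1 was at 101, 89.5 and 34.4 CPM against 37.8, 46 and 44 CPM (-0.81, SE 0.19, adjusted p = 0.01406), and here WT OIR replicate 3 lay below all 3 Casp1 KO libraries. Both calls were lost without WT OIR replicate 2 (adjusted p = 0.444 and 0.233) and without any 1 of the Casp1 KO OIR libraries (0.0739 to 0.272 for Col18a1 and 0.112 to 0.814 for Col4a1), and the Col4a1 call also without WT OIR replicate 1 (0.32). With filterByExpr neither was called (0.159 and 0.49), and with DESeq2 Col4a1 was not (0.154). Without WT OIR replicate 3, 8 of the 64 were lower in Casp1 KO, namely Col4a1, Col4a2, Col18a1, Col9a1, Col11a1, Col6a1, Fn1 and Nid1. The share of all genes called rose in the same step from 0.726% to 4.6%.

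The interaction, which asks whether the change with OIR differed between the genotypes, passed the threshold for 3 of the 64, all with a smaller or opposite change in Casp1 KO (0.706% of all genes passed in that direction and 1.55% in either). For Col18a1 the change was smaller by 1.12 on the log2 scale (log2 difference -1.12, SE 0.266, adjusted p = 0.004479), and for Col4a1 by 1.16 (-1.16, SE 0.274, adjusted p = 0.005515). Col9a1 was fitted higher with OIR in WT and lower in Casp1 KO, at 115, 106 and 111 CPM in normoxia and 105, 71.9 and 106 CPM in OIR (difference -0.65, SE 0.184, adjusted p = 0.03318). All 3 calls were lost without WT OIR replicate 2 (adjusted p = 0.0669, 0.0564 and 0.248). The Col4a1 call was lost as well without WT OIR replicate 1 (0.0829), and the Col9a1 call without WT normoxia replicate 3, any 1 of the Casp1 KO normoxia libraries or Casp1 KO OIR replicate 2 (0.0503 to 0.267). With filterByExpr and with DESeq2 neither Col4a1 (0.364 and 0.161) nor Col9a1 (0.0838 and 0.109) was called, nor was Col9a1 without the robust step (0.0609).

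For Col4a2, the partner of Col4a1, the interaction was -0.19 (SE 0.337, 95% interval -0.85 to 0.47, adjusted p = 0.9111), and it turned to 0.174 without WT OIR replicate 1. For Nid1 it was -1.35 (SE 0.496, adjusted p = 0.1715) and for Sparc 0.38, a larger rise in Casp1 KO (SE 0.118, adjusted p = 0.07131). Both were called without WT OIR replicate 3, at -1.68 (adjusted p = 0.0286) and 0.32 (adjusted p = 0.0336), together with Col11a1 and Col7a1. The DESeq2 Wald test over all libraries called the Sparc interaction as well, and not that of Nid1. Col2a1 and Col8a1 had interactions of -0.13 (95% interval -0.70 to 0.43) and -0.05 (95% interval -0.38 to 0.28).

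Genes that modify, bind or cleave the matrix were examined beside these structural genes. Over all genes, 1.99% were called higher in WT OIR and 2.99% in Casp1 KO OIR. The lists were not tested against these shares, and a single call in a list this short says little about the list. Of 32 genes for collagen processing and crosslinking, 3 were higher in WT OIR and 0 lower, with a median log2 fold change of 0.35: Pcolce, the enhancer of procollagen C-proteinase (2.40, SE 0.287, adjusted p = 5.168e-14), Pxdn, which crosslinks type IV collagen through sulfilimine bonds (1.76, SE 0.541, adjusted p = 0.02831), and Tgm2, a transglutaminase (1.93, SE 0.606, adjusted p = 0.03361). In Casp1 KO OIR 3 of the 32 were higher, Pcolce again among them (1.77, SE 0.254, adjusted p = 6.148e-10). Of 23 matrix receptors 1 was higher in WT OIR, Itgb1, the beta-1 chain shared by collagen and laminin integrins, with mean levels of 71 and 105 CPM (0.56, SE 0.149, adjusted p = 0.00636). In Casp1 KO OIR 2 of the 23 were higher and Itgb1 was not (-0.10, SE 0.13, adjusted p = 0.7762). Of 29 proteases and inhibitors 1 was higher in WT OIR, the serine protease Htra1 (0.63, SE 0.144, adjusted p = 0.0008071), and 4 in Casp1 KO OIR.

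Other matrix proteins moved in both directions. Of 43 kept, 8 were higher and 1 lower in WT OIR, and 6 higher and 1 lower in Casp1 KO OIR. Vcan, a hyaluronan-binding proteoglycan, had mean levels of 5.88 CPM in WT normoxia and 26 CPM in WT OIR (2.10, SE 0.304, adjusted p = 1.737e-09), and Fbln1, a basement membrane and elastic fibre protein, 4.71 and 19.9 CPM (2.09, SE 0.347, adjusted p = 3.244e-07). Sparcl1, the relative of Sparc, went against it: its mean fell from 412 to 234 CPM in WT (-0.82, SE 0.118, adjusted p = 1.753e-09) and from 380 to 257 CPM in Casp1 KO (-0.56, SE 0.0826, adjusted p = 3.483e-09). Sparc rose in both.

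Markers of cell types that make or border basement membranes were read beside these genes, and their part in the results was not tested. The summed endothelial list (14 genes) was 145 to 164 CPM in WT normoxia and 240, 266 and 154 CPM in WT OIR, and the mural list (11 genes, pericytes and smooth muscle, with Tagln at 0 in all 12 libraries) was 104 to 135 CPM and then 190, 213 and 101 CPM. WT OIR replicate 3, the library low in Col4a1, Col4a2, Nid1, Lama4 and Fn1, was also the lowest of its group in both lists. That library was the lowest in the lens and stromal lists too (246 and 28.2 CPM), and the highest in the astrocyte list (270 CPM). It was not low in every called gene, being the highest of its group for Col5a3 and Col8a1. Among endothelial markers 2 of 14 were higher in WT OIR, Pecam1 (1.42, SE 0.292, adjusted p = 0.0001508) and Vwf (3.82, SE 1.09, adjusted p = 0.01419), and among mural markers 1 of 11, Acta2 (3.42, SE 0.36, adjusted p = 3.833e-18). In Casp1 KO the endothelial sums were 161 to 175 CPM in normoxia and 184 to 221 CPM in OIR, with 1 of 14 genes higher, and the mural sums 137 to 156 and 132 to 162 CPM, with 3 of 11 higher.

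Lens and pigment epithelium, which border the retina, were read the same way. The lens list (9 genes) summed to 430 to 478 CPM in WT normoxia, 246 to 536 in WT OIR, 395 to 421 in Casp1 KO normoxia and 712 to 787 in Casp1 KO OIR, where 6 of 9 genes were higher than in normoxia. The list for retinal pigment epithelium (11 genes) summed to 993 to 1010, 1080 to 1250, 1110 to 1130 and 1690 to 1820 CPM in the same order, with 5 of 11 higher in Casp1 KO OIR. In Casp1 KO both lists were higher in OIR, as was the Müller glia list given below, and their part in the 7 genes called higher there was not tested. Of those 7 genes, 5 were also called higher in WT: Sparc, Col2a1, Col5a3, Col8a1 and Fn1. In WT 2 of the 9 lens genes were fitted higher and 0 called. Of the 11 pigment epithelium genes 8 were fitted higher there, with 2 called higher and 1 called lower. Stromal markers (8 genes, Twist2 at 0 in all 12 libraries) stayed low, at 16.9 to 26.8 CPM in normoxia and 27.2 to 35.7 CPM in OIR over both genotypes, without overlap within either genotype. The single genes did not share that direction. In WT 3 of the 8 were fitted higher, with a median log2 fold change of -0.44 and 0 called. In Casp1 KO 5 of the 8 were fitted higher, and Dcn alone was called.

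The astrocyte list (6 genes) summed to 158 to 176 CPM in WT normoxia, 196 to 270 in WT OIR, 174 to 207 in Casp1 KO normoxia and 258 to 262 in Casp1 KO OIR. In WT 3 of its 6 genes were fitted higher, with a median log2 fold change of -0.04, and the only call was Gfap, the intermediate filament of astrocytes and reactive Müller cells (1.62, SE 0.181, adjusted p = 4.258e-16). In Casp1 KO Gfap was called higher (2.29, adjusted p = 6.637e-37) and S100b lower (-0.50, adjusted p = 0.02459). The summed Müller glia list (10 genes) was lower with OIR in WT, at 2950 to 3110 and then 2480 to 2590 CPM, and higher in Casp1 KO, at 2150 to 2280 and then 3250 to 3440 CPM. Its genes went both ways in WT, where 1 of the 10 was called higher and 3 lower, and 4 were fitted higher. In Casp1 KO 8 of the 10 were called higher and 0 lower.

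**Figure D4:**
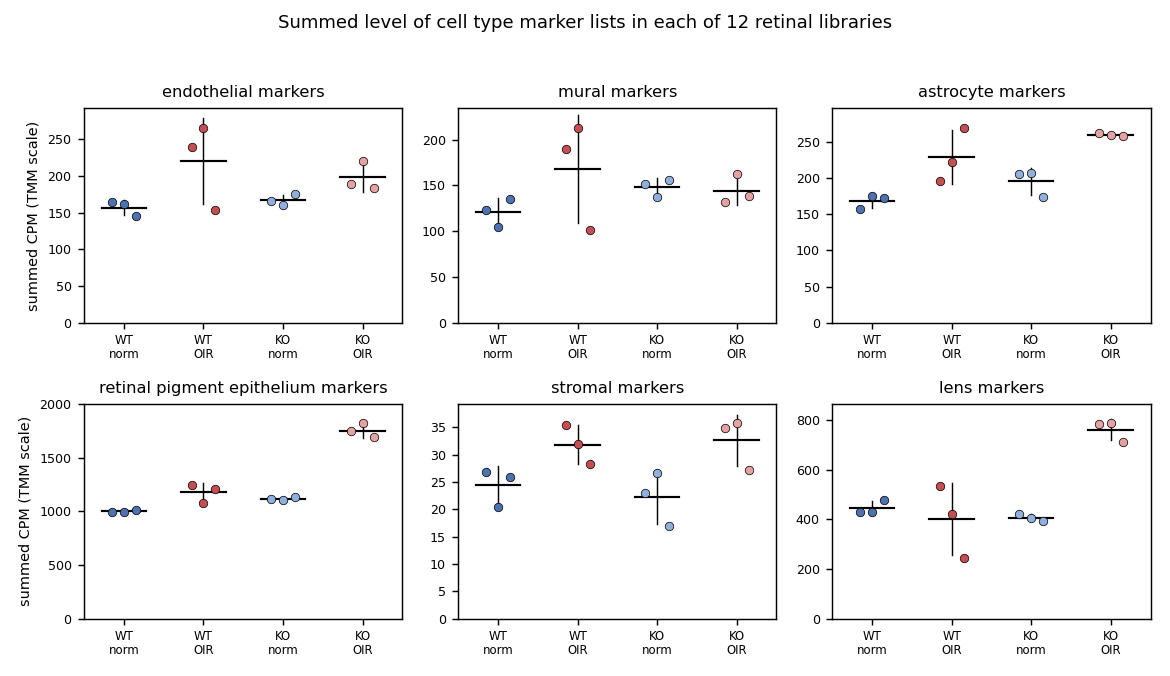
Summed level of 6 cell type marker lists in each library, in CPM on the TMM scale (axes from 0), with the mean and ± 1 SD of 3 libraries per group. In WT OIR the endothelial, mural and lens sums of replicate 3 (154, 101 and 246 CPM) lie far below those of replicates 1 and 2. The lens and pigment epithelium sums are highest in Casp1 KO OIR (712 to 787 and 1690 to 1820 CPM).

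The promoter windows of these genes were rich in G and C. RefSeq windows of 300 bases were found for 46 of the 64 genes (53 windows), with a median GC content of 59.3%, against 52.7% over all 32851 windows. A GC box (GGGCGG, either strand) was in 60.4% of the 53 windows and in 35.7% of all, and among the 10 genes higher in WT OIR with an entry (11 windows) in 72.7%. The core of the hypoxia-responsive element (ACGTG, either strand) was in 11.3% of the 53 windows and 19.6% of all, and in 18.2% of the 11, those of Col4a4 and Col5a1. CCAAT was in 30.2% of the 53 windows and 37.4% of all, TATAAA in 15.1% and 13.6%, and the AP-1 motif TGANTCA in 1.89% and 7.81%, all on either strand. These are matches of letters in a GC-rich set of windows, not sites.

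Accounting for the rest, 47 of the 64 genes passed the threshold in none of the 5 fits. Of these, 26 had at least 1 library at 3 reads or fewer, and the lowest were Lama3 with 16 and Col28a1 with 11 reads over the 12 libraries. For genes with so few reads a missing call says little, although Col5a1 and Col7a1, which also had libraries at 3 reads or fewer, were called.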

How the data were processed

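Retinal RNA was extracted with TRIzol, and the authors made QuantSeq 3′ libraries and sequenced single reads on a NovaSeq. The deposited values are raw counts of reads per gene symbol, which the authors obtained by aligning to the mouse genome and counting with htseq-count, without normalization. The submitters' processing notes name STAR 2.7.5a, HTSeq 0.6.1, edgeR and the mm10 build. The annotation and strand setting of the counting are not given in the sources used here, and no molecular identifiers are described, so that the floor of 3 reads covers counting error only.

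Samples were grouped by their GEO labels. The counts were fitted in R 4.3.3 with edgeR 4.0.16 (TMM, robust glmQLFit, glmQLFTest, prior count 0.125), each comparison of a pair of groups on its own 6 libraries and the interaction on all 12. Genes needed 10 reads over the 12 libraries and 1 read in those fitted, and p-values were adjusted over all of them at a threshold of 0.05. The procedure was also run on simulated counts. Every gene was given the same spread beyond counting error there, so those runs do not test it at the spread of these genes. The SE was the fold change over the root of the F statistic. Exact permutation tests were two-sided, over 20 assignments of 3 of 6 libraries. Alternatives were DESeq2 1.42.0, its size factors, library size alone, filterByExpr, no filter, no robust step, a replicate block and the removal of each library. Positions come from GENCODE on GRCm38 (mm10) and promoter windows from RefSeq on GRCm38.p6.

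The members, the lists of other genes and the robust fit were chosen with earlier results of these data known. Named were Col4a1, Col4a2, Sparc, every member called in any fit, the member of each role group with most reads, and from the other lists at most 3 genes called in WT OIR or the interaction. Other members were named to account for them.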

Additional observations from a re-analysis of the deposited data

Results flagged for a closer look

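Listed here are the structural genes, and the related matrix genes and endothelial marker named with them, for which the change with OIR differed between libraries labelled WT and Casp1 KO by the interaction term of edgeR's quasi-likelihood test. Among the 64 matrix genes these were Col18a1 (log2 difference -1.12, adjusted p = 0.004479), Col4a1 (-1.16, adjusted p = 0.005515) and Col9a1 (-0.65, adjusted p = 0.03318), each with a smaller or opposite change in Casp1 KO. All 3 calls were lost without WT OIR replicate 2 (adjusted p = 0.0669, 0.0564 and 0.248). Among the matrix-related genes outside the 64, the term passed for Vcan (-2.60, adjusted p = 6.339e-06), Fbn2, a fibrillin of early elastic fibres (-2.39, adjusted p = 0.008944), and Itgb1 (-0.67, adjusted p = 0.04557). Among the endothelial markers it passed for Emcn (-4.94, adjusted p = 0.04093), whose means were 0.719 CPM in WT normoxia, 4 in WT OIR, 2.60 in Casp1 KO normoxia and 0.436 in Casp1 KO OIR. In other marker lists the term passed the other way for 5 of 10 Müller glia, 5 of 9 lens, 3 of 11 pigment epithelium and 1 of 10 rod genes. There the log2 fold change was higher in Casp1 KO than in WT, whether larger or opposite in sign. Casp1 reads went against the genotype labels on which the direction of each of these rests.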

How the results depend on the processing

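The number of the 64 genes called was 13 with OIR in WT, 8 with OIR in Casp1 KO, 1 between genotypes in normoxia, 2 between genotypes in OIR and 3 for the interaction. With filterByExpr, which tested 45 of the 64 in WT, these became 8 in WT and 10 in Casp1 KO. Between genotypes it gave 1 in normoxia and 0 in OIR, and for the interaction 1. The DESeq2 Wald test gave 9 in WT and 6 in Casp1 KO. Between genotypes its counts were 2 in normoxia and 1 in OIR, and for the interaction 2, with Sparc among them. With the removal of 1 library at a time the counts ran from 9 to 16 in WT, 3 to 7 in Casp1 KO, 0 to 1 between genotypes in normoxia, 0 to 8 in OIR and 0 to 7 for the interaction. The lowest in Casp1 KO came without its normoxia replicate 1, and the highest in WT, between genotypes in OIR and for the interaction came without WT OIR replicate 3. Without WT OIR replicate 2, 0 genes were called between genotypes in OIR and 0 for the interaction. Among the called genes and Col4a1, Col4a2 and Sparc, the sign changed for the Col4a2 interaction alone, which was -0.186 over all libraries, 0.174 without WT OIR replicate 1 and -0.527 without WT OIR replicate 3. Over the values of these genes under all alternatives, 421 values kept direction and side of the threshold, 72 lost a call and 4 gained one. TMM against library size alone moved 0 of 256 group levels by more than 1 SD.

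With the replicate number as a block the counts were 13, 8, 1, 2 and 3, the same as without it. Same-numbered libraries of the groups compared correlated at -0.028 to 0.035 (deviations from group means, 14287 genes), so that the numbers do not pair the samples.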
